A study of Mus musculus with 6 samples.

Results

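Chemokines are small secreted proteins that steer leukocytes, and each acts through receptors of the seven-pass, G protein-coupled type. The family described here was taken by name: every transcript cluster of the array whose single gene symbol starts with Ccl, Cxcl, Cx3cl, Xcl, Ccr, Cxcr, Cx3cr, Xcr or Ackr and a digit. That rule found 56 genes, each with 1 cluster, among 30604 clusters with 1 symbol and 65956 clusters in all. They are 36 ligands, the pseudogene Ccl19-ps1 counted with them, and 20 receptors. A filter left out clusters whose mean over the 6 arrays lies at or under 4.03 log2 units, a percentile of all cluster means that 43992 of the 65956 clusters pass. It kept 44 of the 56, 33 ligands and 11 receptors, which were tested together with 22098 genes in all.

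RNA came from kidney tissue of female Pkd1 miR transgenic mice, which carry a transgene directed against Pkd1, the polycystin-1 gene mutated in polycystic kidney disease. The metformin group (3 samples) had metformin at 150 mg/kg/day by intraperitoneal injection, and the saline group (3 samples) had saline injections. Dosing started at postnatal day 35, and kidneys were taken at postnatal day 63. All carry the transgene, so no array shows a kidney without it. The sources used here name neither the promoter that drives it nor whether animals were pooled. Metformin is a biguanide used in diabetes that inhibits respiratory complex I and activates the kinase AMPK. Expression is given as log2 units of the authors' RMA values, 1 array per sample.

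In the kidney, tubule cells, endothelium, fibroblasts and resident macrophages release chemokines, and injured tubules are a known source of the ligands that draw in monocytes and neutrophils. Ligands are often sorted by the receptor they bind and by what induces them: NF-kB drives many inflammatory ones, interferon gamma drives the Cxcr3 ligands, and a homeostatic set is made without inflammation. Conventional receptors signal through Gi proteins, whereas atypical receptors bind and clear ligands without such signalling.

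The arrays had medians of 4.67 to 4.86 log2 units and correlated at 0.994 to 0.996 within metformin, 0.993 to 0.995 within saline and 0.984 to 0.993 between the groups. As a check of the tissue, all 17 proximal tubule markers measured passed the filter. All 17 had changes below 0 and 7 fell with metformin, or 15 when the labels' replicate number was added to the fit as a block. Over all genes 9.08% fell, or 11.0% with that block. In the 6 fits with 1 array left out, the call of Slc7a9 held in 4. Those of Fbp1, Gatm, Slc22a8, Slc5a12, Slc6a19 and Slc7a7 held in only 2. Pkd1 averaged 7.50 ± 0.14 with metformin and 6.85 ± 0.27 with saline (SD, n = 3 each; limma adjusted p = 0.0317).

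With metformin 2 chemokine genes rose and 1 fell. The macrophage-derived ligand Ccl9 rose 1.90-fold, the interferon-induced ligand Cxcl9 rose 1.89-fold, and the stromal ligand Cxcl12 fell, 1.83-fold lower than with saline. The other 41 of the 44 tested did not pass a limma adjusted p under 0.05. The 3 calls are 6.82% of the members tested, against 15.8% of all 22098 genes (2 of 44 or 4.55% higher against 6.71%, and 1 of 44 or 2.27% lower against 9.08%). Over all genes 1483 were higher and 2006 lower, which became 912 higher and 2713 lower when each array was centred on its median. Of the 44 changes 33 lay above 0 (75%, against 52.9% of all genes), and 31 of the 41 that did not pass. The median of the 44 was 0.14 log2 units, against 0.02 over all genes.

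Other counts had the same lean. A difference of 1.5-fold or more together with p under 0.05 before adjustment was met by 9 of the 44 (20.5%, against 11.9% of all genes). Of these 8 were higher with metformin (18.2%, against 5.26%) and 1 was lower (2.27%, against 6.64%). The groups did not overlap in 13 of the 44 (29.5%, against 37.2% of all genes). In 11 (25%) every metformin value lay above every saline value, against 17.8% of all genes, and in 2 (4.55%) every one lay below, against 19.4%. Scaling the arrays otherwise lowered the members' values and those of all genes together. After quantile normalization 23 of the 44 changes lay above 0 (52.3%, against 35.0% of all genes), with a median of 0.03, against -0.10 over all genes. After median-centring 26 of the 44 did (59.1%, against 37.7%).

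The labels number the replicates 1 to 3 in each group. With that number as a block in limma 10 of the 44 passed (22.7%), against 19.8% of all genes. Of these 9 were higher (20.5%, against 8.79% of all genes) and 1 was lower (2.27%, against 11.0%). They were Ccl2, Ccl5, Ccl6, Ccl7, Ccl9, Ccl20, Cxcl1, Cxcl2, Cx3cl1 and, lower, Cxcl12, whereas Cxcl9 did not pass. Metformin minus saline within numbers 1, 2 and 3 lay above 0 each time in 18 of the 44 (40.9%, against 29.9% of all genes) and below 0 each time in 4 (9.09%, against 29.0%). The labels leave unsaid what the number marks, and metformin array 1 deviated together with saline array 2 (correlation 0.299 over all genes) more closely than with saline array 1 (0.118).

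**Figure D1:**
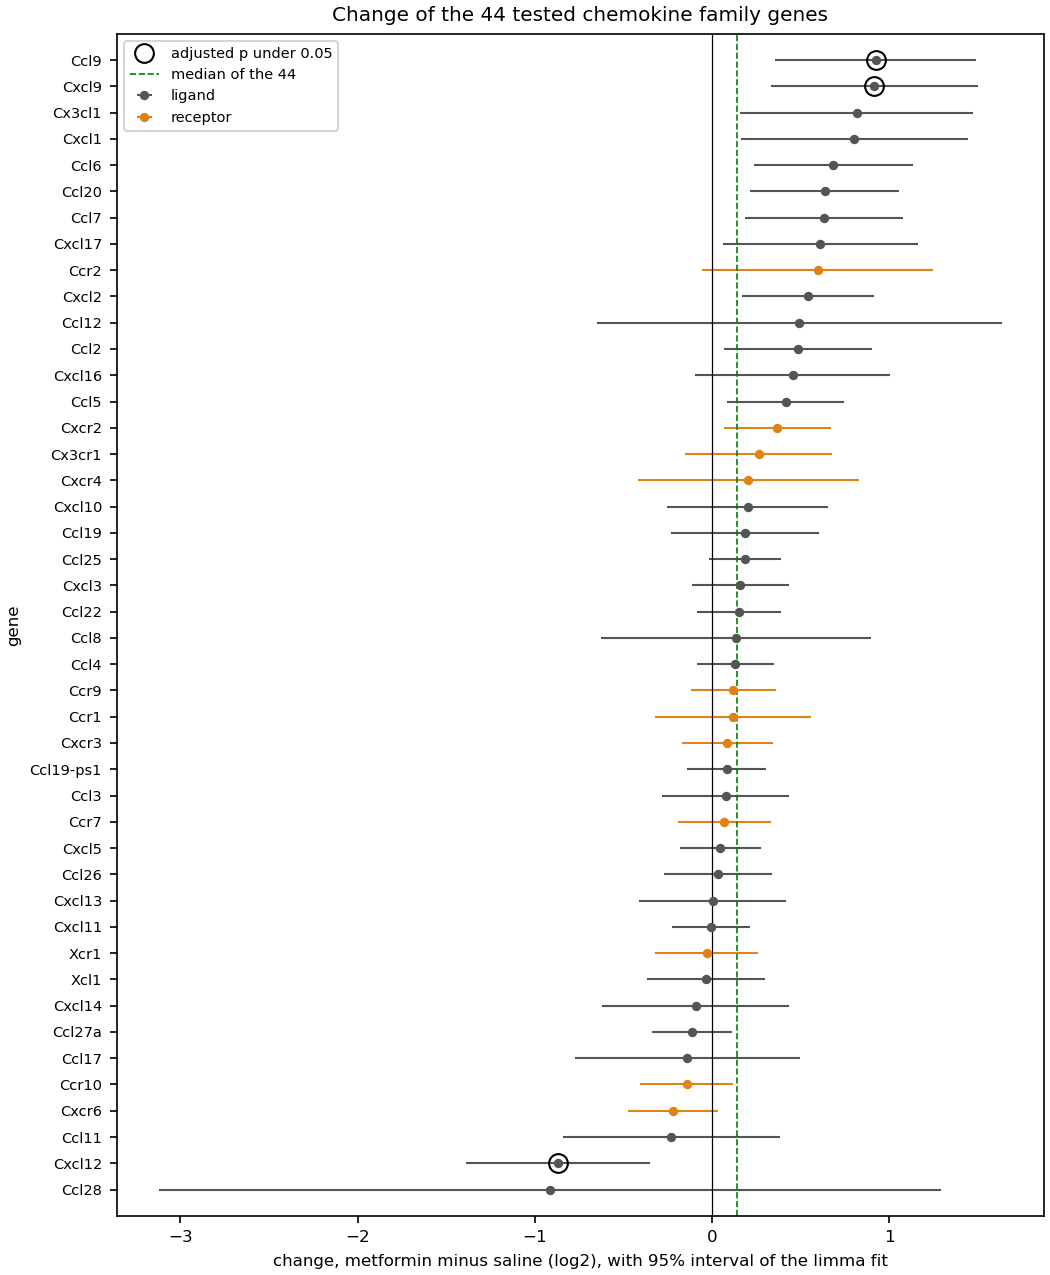
Change of each of the 44 tested genes, metformin minus saline in log2 units on the horizontal axis, with the 95% interval of the limma fit. Ligands are grey and receptors orange, circles mark the 3 genes past an adjusted p of 0.05, and the dashed line marks the median of 0.14; most points lie right of 0, and the intervals of the genes near the top do not reach it.

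Cxcl12 is a homeostatic ligand made by stromal and endothelial cells, and it binds Cxcr4 and the atypical receptor Ackr3. Its metformin arrays 1 to 3 read 7.49, 8.24 and 8.29 log2 units, against 9.0, 8.99 and 8.65 on saline arrays 1 to 3. Metformin array 1 was the lowest of all, and the groups did not overlap. The mean was 8.01 ± 0.45 with metformin and 8.88 ± 0.20 with saline (SD, n = 3 each), a change of -0.87 ± 0.22 (SE; limma adjusted p = 0.0402). The call ended when any array other than metformin 3 was left out, with adjusted p between 0.0511 and 0.135. Without metformin array 1 the change was -0.61. The call held after median-centring (limma adjusted p = 0.0402) and quantile normalization (0.0283).

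Ccl9, a mouse ligand of Ccr1 that macrophages and other myeloid cells secrete, read 8.40, 8.06 and 8.20 on metformin arrays 1 to 3, against 7.33, 7.79 and 6.76 on saline arrays 1 to 3. Every metformin value was higher than every saline value, and saline array 3 was the lowest. Group means were 8.22 ± 0.17 with metformin and 7.29 ± 0.51 with saline (SD, n = 3 each), which gave a change of 0.92 ± 0.24 (SE; limma adjusted p = 0.0427). Leaving out any array other than saline 2 ended this call, at adjusted p between 0.0602 and 0.132. It also ended after median-centring (0.0620) and quantile normalization (0.0573).

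Cxcl9, which interferon gamma induces and which draws T cells and NK cells through Cxcr3, read 8.05, 8.05 and 8.26 on metformin arrays 1 to 3, against 7.47, 7.57 and 6.57 on saline arrays 1 to 3. The metformin values lay close together, while saline array 3 was well under the other saline arrays. Its change was 0.92 ± 0.25 (SE; limma adjusted p = 0.0472, and 0.0569 with the replicate block), from means of 8.12 ± 0.12 with metformin and 7.20 ± 0.55 with saline (SD, n = 3 each). Leaving out any metformin array (0.113 to 0.115) or saline array 1 (0.0905) ended the call, as did median-centring (0.0741) and quantile normalization (0.0757). Without saline array 3 the change was 0.60, at an adjusted p of 0.0307.

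**Figure D2:**
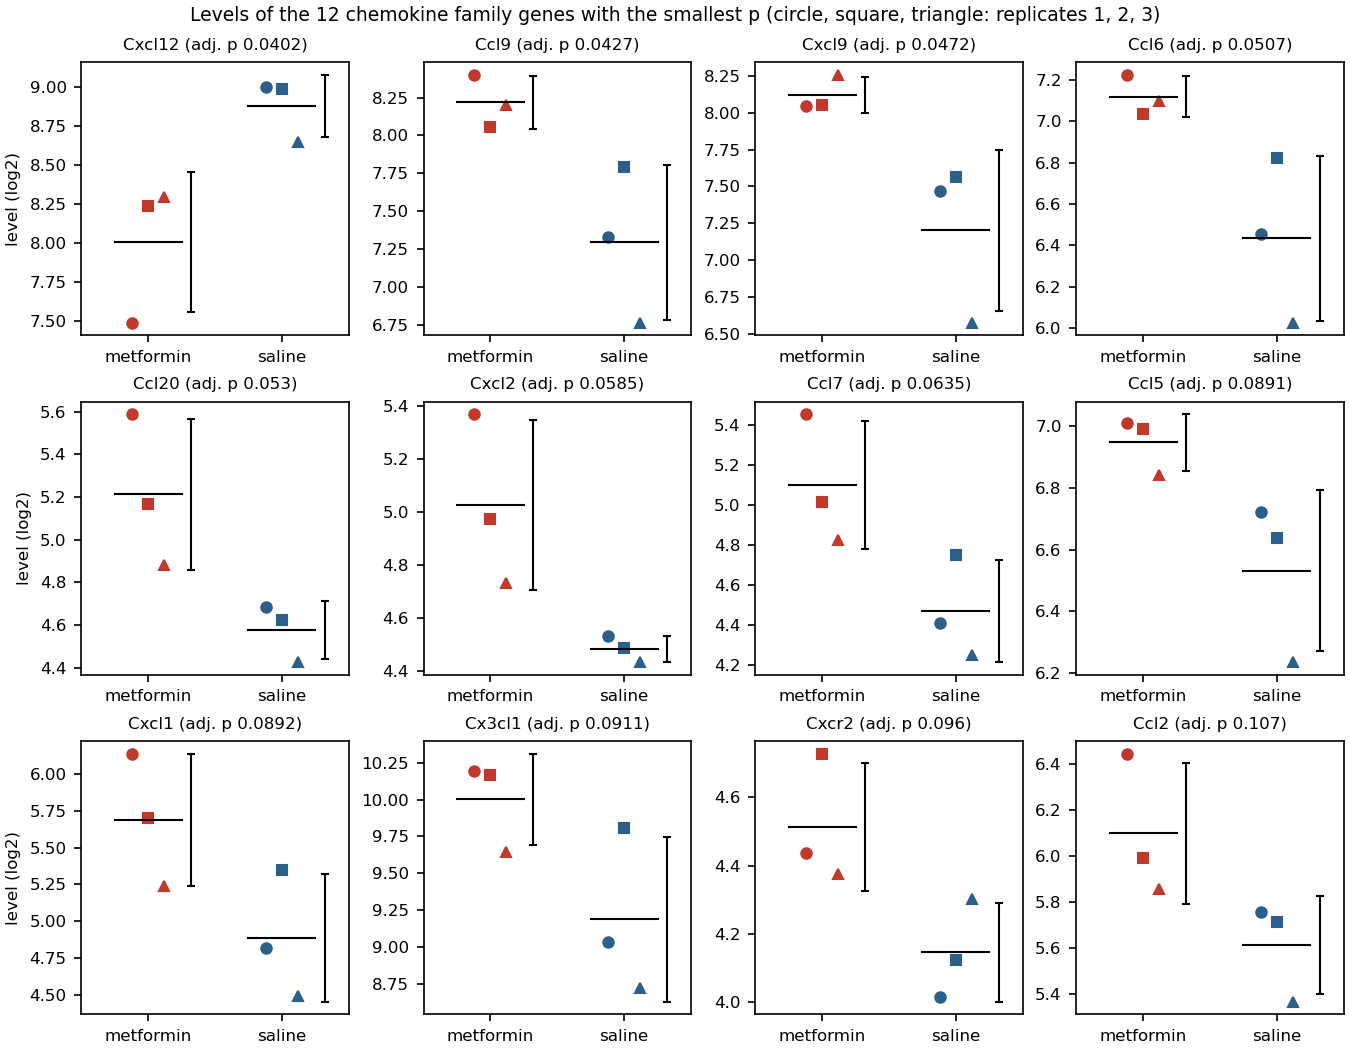
Levels in log2 units of the 12 tested genes with the smallest p, metformin left of saline in each panel, with a vertical scale of its own. Circle, square and triangle are replicates 1, 2 and 3, the horizontal line is the group mean and the bar beside it is 1 SD; the groups stay apart in every panel except those of Cxcl1 and Cx3cl1, where saline replicate 2 lies above metformin replicate 3.

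The start-site regions of the 3 called genes are printed, with 3 examples that passed with the replicate block (Cxcl1, Cxcl2 and Ccl20). They were picked after the values were seen. They run from 250 bases before the annotated start to 50 after it, 5′ to 3′ on the gene's strand, from RefSeq on GRCm38.p6. Capitals mark each match, on either strand, to 1 of the 6 motifs searched: the kB consensus, GAS (TTCNNNGAA), the ISRE core (GAAA, any 2 bases, then GAAA), AP-1 (TGANTCA), the TATA box (TATAAA) and the GC box (GGGCGG).
Cxcl12 (chr6:117168285-117168584, plus strand): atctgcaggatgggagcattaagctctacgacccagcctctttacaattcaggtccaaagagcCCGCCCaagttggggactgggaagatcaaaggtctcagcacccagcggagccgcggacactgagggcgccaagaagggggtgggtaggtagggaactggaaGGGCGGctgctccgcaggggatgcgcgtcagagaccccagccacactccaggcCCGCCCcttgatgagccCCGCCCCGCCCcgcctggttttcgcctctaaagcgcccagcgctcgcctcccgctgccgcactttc
Ccl9 (chr11:83578587-83578886, minus strand): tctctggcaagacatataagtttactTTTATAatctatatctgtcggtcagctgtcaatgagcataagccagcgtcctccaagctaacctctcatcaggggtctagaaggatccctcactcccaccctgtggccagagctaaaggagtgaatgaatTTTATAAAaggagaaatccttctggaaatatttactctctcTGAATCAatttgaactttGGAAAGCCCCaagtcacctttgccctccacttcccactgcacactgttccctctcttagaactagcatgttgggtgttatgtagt
Cxcl9 (chr5:92328030-92328329, minus strand): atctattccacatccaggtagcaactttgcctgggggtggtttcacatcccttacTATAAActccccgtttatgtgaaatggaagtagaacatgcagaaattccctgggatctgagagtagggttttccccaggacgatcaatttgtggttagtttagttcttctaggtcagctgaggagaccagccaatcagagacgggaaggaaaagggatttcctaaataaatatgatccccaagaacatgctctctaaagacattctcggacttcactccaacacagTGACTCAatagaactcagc
Cxcl1 (chr5:90890995-90891294, plus strand): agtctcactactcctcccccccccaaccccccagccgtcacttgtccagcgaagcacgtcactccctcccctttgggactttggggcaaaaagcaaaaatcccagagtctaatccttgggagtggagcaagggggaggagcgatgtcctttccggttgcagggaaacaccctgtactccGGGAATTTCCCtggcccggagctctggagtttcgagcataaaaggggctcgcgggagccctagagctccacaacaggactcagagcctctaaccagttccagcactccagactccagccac
Cxcl2 (chr5:90903649-90903948, plus strand): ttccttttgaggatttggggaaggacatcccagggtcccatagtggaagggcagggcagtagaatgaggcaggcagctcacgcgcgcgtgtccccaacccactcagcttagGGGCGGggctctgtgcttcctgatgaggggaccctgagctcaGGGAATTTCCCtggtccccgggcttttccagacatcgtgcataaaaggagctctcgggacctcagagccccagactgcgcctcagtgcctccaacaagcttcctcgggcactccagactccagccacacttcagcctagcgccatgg
Ccl20 (chr1:83116516-83116815, plus strand): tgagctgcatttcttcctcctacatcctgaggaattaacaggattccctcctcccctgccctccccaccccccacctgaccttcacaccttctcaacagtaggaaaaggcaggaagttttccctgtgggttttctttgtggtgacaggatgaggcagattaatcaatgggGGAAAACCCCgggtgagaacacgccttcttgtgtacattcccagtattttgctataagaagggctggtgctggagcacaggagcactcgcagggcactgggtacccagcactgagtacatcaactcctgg

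Cxcl12 has the composition of a CpG-rich promoter, with 20 CpG dinucleotides, a GC content of 64.7% and 5 GC boxes in the 300 bases. Ccl9 has 2 CpG dinucleotides and 43.7% GC, and Cxcl9 has 4 and 44.3%. Both hold an AP-1 match, starting 53 bases before the start in Ccl9 and at base 32 after it in Cxcl9, and both hold a TATA box match on the gene's strand, starting 92 and 195 bases before the start. Cxcl1 and Cxcl2 share the same kB match, GGGAATTTCC, starting 71 and 97 bases before the start. Ccl20 holds a kB match on the other strand starting 80 bases before its start, and Ccl9 holds one starting 35 bases before it. The printed genes do not stand for all that rose with the replicate block. For Ccl2, Ccl5 and Ccl7, which also rose with it, no RefSeq promoter was found, so their motifs are not known here. Cx3cl1, not printed, resembled Cxcl12, with 19 CpG dinucleotides, 64.7% GC, a GC box match and no kB match. Ccl6, not printed either, had 2 CpG dinucleotides, 45.3% GC and no kB match.

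RefSeq promoters were found for 41 of the 56 members, 45 promoters in all. The kB consensus occurred in 24.4% of them, against 8.46% of all 32841 promoters of that length. AP-1 matched 17.8% of members' promoters against 7.81% of all, the TATA box 28.9% against 13.6%, the ISRE core 6.67% against 3.44%, GAS 8.89% against 8.30%, and the GC box 20% against 35.7%. Letters shared by overlapping matches were marked once, and a match is a run of letters, not a site shown to be bound. The median member promoter had 4 CpG dinucleotides, against 7 over all promoters.

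Ccr2 is the receptor that brings inflammatory monocytes out of the marrow. Its 4 ligands all had changes above 0 (median 0.49), against 52.9% of all genes. None passed, against 15.8% of all genes, while 2 rose with the replicate block, against 8.79%. Ccl2, the main monocyte attractant, read 6.45, 5.99 and 5.86 on metformin arrays 1 to 3, against 5.76, 5.71 and 5.37 on saline arrays 1 to 3. Its groups did not overlap, and the change was 0.49 ± 0.18 (SE; limma adjusted p = 0.107, and 0.0371 with the replicate block). Ccl7, its neighbour on chromosome 11, read 5.45, 5.02 and 4.83 on metformin arrays 1 to 3, against 4.41, 4.75 and 4.25 on saline arrays 1 to 3. These values did not overlap either, with a change of 0.63 ± 0.19 (SE; limma adjusted p = 0.0635, and 0.0487 with the replicate block). Ccl12 and Ccl8, the other two, had changes of 0.49 and 0.13 with wide intervals (-0.65 to 1.63 and -0.63 to 0.90). For Ccl12 saline array 2 (7.14) lay between metformin arrays 1 (7.28) and 2 (6.69). For Ccl8 saline array 2 (5.78) lay above every metformin array, the highest of which was array 1 (5.53).

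Ccr2 itself, a marker of recruited monocytes, read 8.13, 7.58 and 7.57 on metformin arrays 1 to 3, against 7.20, 7.69 and 6.60 on saline arrays 1 to 3. The groups overlapped because saline array 2 lay inside the metformin range, and the change of 0.60 ± 0.28 (SE) had a limma adjusted p of 0.190.

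Ccl6, like Ccl9 a myeloid ligand known in mice, read 7.23, 7.03 and 7.10 on metformin arrays 1 to 3, against 6.45, 6.82 and 6.03 on saline arrays 1 to 3. Its order of arrays followed that of Ccl9 in saline, with array 2 high and array 3 low, and the change was 0.69 ± 0.19 (SE; limma adjusted p = 0.0507, and 0.0490 with the replicate block). Ccl5, which T cells, NK cells and tubule cells make, read 7.01, 6.99 and 6.84 on metformin arrays 1 to 3, against 6.72, 6.64 and 6.24 on saline arrays 1 to 3. It kept the groups apart by a narrow gap, with a change of 0.42 ± 0.14 (SE; limma adjusted p = 0.0891, and 0.0438 with the replicate block). Ccl4 and Ccl3, the macrophage inflammatory proteins, had changes of 0.13 and 0.08. The receptor Ccr1, which Ccl3 and Ccl9 bind, had a change of 0.12 with an interval of -0.32 to 0.56.

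The Cxcr2 ligands recruit neutrophils and carry the ELR motif before their first cysteine. All 4 tested had changes above 0 (median 0.35), against 52.9% of all genes. None passed, against 15.8% of all genes, while 2 rose with the replicate block, against 8.79%. Cxcl1 read 6.13, 5.70 and 5.24 on metformin arrays 1 to 3, against 4.82, 5.35 and 4.49 on saline arrays 1 to 3. Saline array 2 exceeded metformin array 3, and the change was 0.80 ± 0.28 (SE; limma adjusted p = 0.0892, and 0.0414 with the replicate block). Cxcl2 read 5.37, 4.97 and 4.73 on metformin arrays 1 to 3, against 4.53, 4.49 and 4.43 on saline arrays 1 to 3. Here the saline values lay close together, under every metformin value, and the change was 0.54 ± 0.16 (SE; limma adjusted p = 0.0585, and 0.0401 with the replicate block). Cxcl3 and Cxcl5 had changes of 0.16 and 0.05, and Cxcl15 lay under the percentile. The receptor Cxcr2, found on neutrophils, read 4.44, 4.73 and 4.37 on metformin arrays 1 to 3, against 4.01, 4.12 and 4.30 on saline arrays 1 to 3. The groups did not overlap, by a narrow gap, with a change of 0.37 ± 0.13 (SE; limma adjusted p = 0.0960).

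Of the 3 Cxcr3 ligands 1 passed, against 15.8% of all genes, or 0 with the replicate block, against 19.8%. Beside Cxcl9, Cxcl10 read 5.51, 5.26 and 4.90 on metformin arrays 1 to 3, against 5.10, 5.25 and 4.7 on saline arrays 1 to 3. Its groups overlapped, with a change of 0.20 ± 0.19 (SE; limma adjusted p = 0.526), and Cxcl11, a transcribed pseudogene in RefSeq, had a change of -0.00492 (interval -0.23 to 0.22). The receptor Cxcr3, carried by effector T cells, read 5.05, 5.05 and 5.30 on metformin arrays 1 to 3, against 4.93, 5.12 and 5.08 on saline arrays 1 to 3. Those values overlapped as well (change 0.09, limma adjusted p = 0.642). Of 18 other interferon response genes tested 1 passed, against 15.8% of all genes. It was Tap1, the peptide transporter, with a change of 0.60 ± 0.14 (SE; limma adjusted p = 0.0343). The median of that list was 0.17. With the replicate block 2 of the list rose and 1 fell, against 8.79% and 11.0% of all genes. The Tap1 call ended in 5 of the 6 fits that left out 1 array, after median-centring (0.0650) and after quantile normalization (0.0508).

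Ccl20, which epithelium releases to draw Ccr6-bearing T and dendritic cells, read 5.59, 5.17 and 4.88 on metformin arrays 1 to 3, against 4.68, 4.62 and 4.42 on saline arrays 1 to 3. Every metformin value exceeded every saline value, and the change was 0.64 ± 0.18 (SE; limma adjusted p = 0.0530, and 0.0253 with the replicate block). Its receptor Ccr6 lay under the percentile, at 3.67, 3.48 and 3.34 on metformin arrays 1 to 3, against 3.56, 3.58 and 3.71 on saline arrays 1 to 3.

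Both membrane-bound ligands of the kidney, whose shed forms attract leukocytes, had changes above 0 that did not pass. Cx3cl1, or fractalkine, read 10.20, 10.17 and 9.65 on metformin arrays 1 to 3, against 9.03, 9.81 and 8.72 on saline arrays 1 to 3. Saline array 2 lay above metformin array 3, and the change was 0.82 ± 0.28 (SE; limma adjusted p = 0.0911, and 0.0309 with the replicate block). Its receptor Cx3cr1, a marker of monocytes and resident macrophages, read 7.69, 7.32 and 7.35 on metformin arrays 1 to 3, against 7.01, 7.55 and 7.01 on saline arrays 1 to 3. The receptor's groups overlapped, with a change of 0.26 ± 0.18 (SE; limma adjusted p = 0.355).

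Cxcl16, also a scavenger receptor for oxidized lipoprotein, read 10.79, 10.76 and 10.32 on metformin arrays 1 to 3, against 10.09, 10.66 and 9.76 on saline arrays 1 to 3. Saline array 2 again reached the metformin range, and the change was 0.45 ± 0.24 (SE; limma adjusted p = 0.232). Cxcr6, its receptor on T and NK cells, read 4.35, 4.50 and 4.46 on metformin arrays 1 to 3, against 4.57, 4.84 and 4.57 on saline arrays 1 to 3. It is the other gene beside Cxcl12 with all metformin values under all saline values, at a change of -0.22 ± 0.11 (SE; limma adjusted p = 0.217).

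Neither receptor of Cxcl12 passed. Cxcr4 read 6.95, 7.38 and 7.18 on metformin arrays 1 to 3, against 7.31, 7.28 and 6.32 on saline arrays 1 to 3, with overlap and a change of 0.21 ± 0.27 (SE; limma adjusted p = 0.649). The cluster that the platform lists under Ackr3 and its older name Cxcr7, which the name rule leaves out for having more than 1 symbol, read 7.58, 7.30 and 7.06 on metformin arrays 1 to 3, against 6.84, 7.10 and 7.08 on saline arrays 1 to 3. These groups overlapped too (change 0.30 ± 0.16, SE; limma adjusted p = 0.220 over all clusters).

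Ligands of lymphoid tissue and epithelium did not pass. Ccl19, which guides Ccr7-bearing cells to lymph nodes, read 6.17, 6.52 and 6.34 on metformin arrays 1 to 3, against 6.27, 6.42 and 5.78 on saline arrays 1 to 3. Its receptor Ccr7 read 6.22, 6.36 and 6.02 on metformin arrays 1 to 3, against 6.15, 6.18 and 6.06 on saline arrays 1 to 3. The groups overlapped in both genes (changes 0.19 and 0.07), and Ccl19 shares sequence with the pseudogene Ccl19-ps1 (change 0.08), so its probes may read more than 1 copy. Cxcl13, the B cell attractant, read 6.74, 6.31 and 6.52 on metformin arrays 1 to 3, against 6.26, 6.85 and 6.44 on saline arrays 1 to 3. Its change was 0.00 with an interval of -0.41 to 0.42, and its receptor Cxcr5 lay under the percentile, at 3.65, 3.39 and 3.52 on metformin arrays 1 to 3, against 3.82, 3.57 and 3.79 on saline arrays 1 to 3. Cxcl14, an epithelial ligand, read 8.69, 9.0 and 8.36 on metformin arrays 1 to 3, against 9.07, 8.92 and 8.34 on saline arrays 1 to 3, with overlap (change -0.09, interval -0.62 to 0.44).

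Ccl25, which guides lymphocytes to the gut through Ccr9, read 7.58, 7.66 and 7.54 on metformin arrays 1 to 3, against 7.41, 7.36 and 7.44 on saline arrays 1 to 3. The groups lay apart by a change of only 0.18 ± 0.09 (SE; limma adjusted p = 0.195), which was -0.03 after quantile normalization. Ccl27a, a skin ligand of Ccr10 with near-identical copies on chromosome 4, read 7.57, 7.55 and 7.49 on metformin arrays 1 to 3, against 7.72, 7.72 and 7.52 on saline arrays 1 to 3. Its change was -0.11 ± 0.10 (SE; limma adjusted p = 0.469), and -0.32 (0.0391) after quantile normalization. Ccl28, an epithelial ligand of Ccr10 that attracts plasma cells, read 6.29, 6.88 and 7.09 on metformin arrays 1 to 3, against 6.58, 6.23 and 10.19 on saline arrays 1 to 3. Saline array 3 stood far above the other 5 arrays, so that the change was -0.92 ± 0.95 (SE; limma adjusted p = 0.555) with it and 0.34 (adjusted p = 0.405) without it. The remaining tested ligands had changes of 0.61 for Cxcl17, -0.23 for the eosinophil ligand Ccl11, 0.04 for Ccl26, -0.14 and 0.15 for the Ccr4 ligands Ccl17 and Ccl22, and -0.03 for Xcl1. The remaining tested receptors had changes of 0.12 for Ccr9, -0.14 for Ccr10 and -0.03 for Xcr1, the receptor of cross-presenting dendritic cells.

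Below the percentile lay 12 members: the ligands Cxcl15, Ccl24 and Ccl1, the atypical receptors Ackr4 and Ackr1, and the receptors Cxcr5, Ccr4, Ccr6, Ccr8, Ccr1l1, Ccr3 and Cxcr1. Their values ran from 3.0 to 4.07 log2 units, and their changes from -0.21 to 0.27. Fitted without a filter, where 10.5% of 30142 genes passed, 0 of the 12 passed with limma and 0 had an unadjusted p under 0.05 (smallest adjusted p 0.244, that of Ccr8). On either side of the threshold Ccl4 averaged 4.15 ± 0.02 with metformin and 4.02 ± 0.11 with saline, and Cxcl15 averaged 3.98 ± 0.08 with metformin and 4.01 ± 0.05 with saline (SD, n = 3 each).

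Within each group the family varied in a shared order. Saline array 3 was the lowest of the saline arrays in 29 of the 44 genes (65.9%), against 34.2% of all genes, and saline array 2 was the highest in 21 (47.7%), against 33.6%. Metformin array 1 was the highest of the metformin arrays in 29 (65.9%), against 44.5% of all genes. The mean deviation of the 44 genes from their own means was 0.21, 0.11 and -0.02 on metformin arrays 1 to 3, against -0.11, 0.06 and -0.24 on saline arrays 1 to 3. Saline array 2 thus lay above metformin array 3, and the groups overlapped on this measure.

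**Figure D3:**
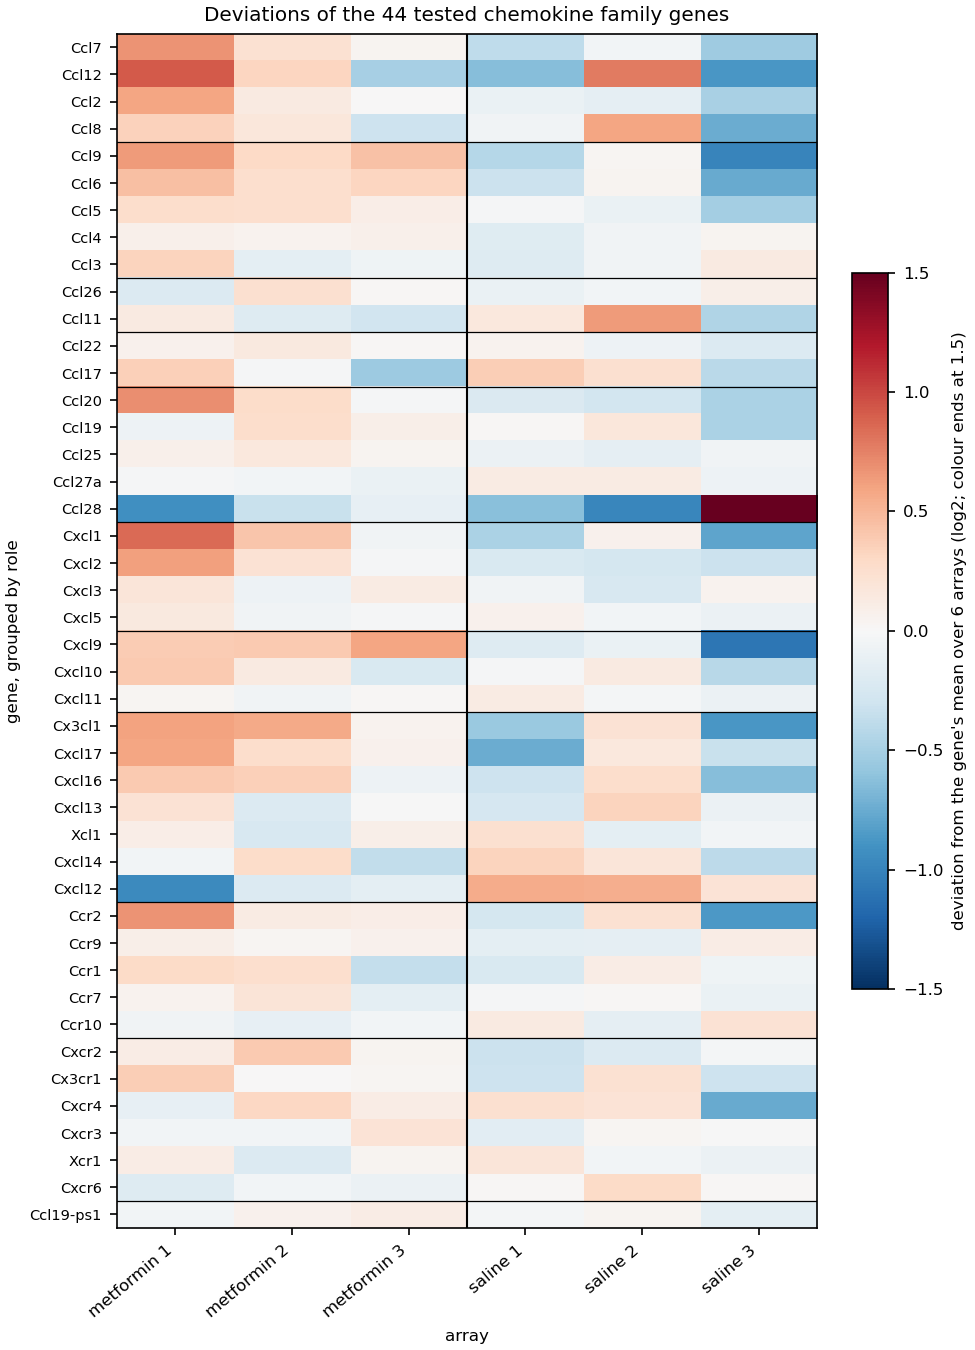
Deviation of each of the 44 tested genes from its mean over the 6 arrays, in log2 units, as colour (red above, blue below, ending at 1.5), with genes in rows grouped by role and arrays in columns, metformin left of saline. The column of saline array 3 is mostly blue, saline array 2 is red in Ccl12, Ccl8 and Ccl11, and Ccl28 on saline array 3 lies past the end of the scale.

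In bulk tissue fewer cells of a type and less RNA per cell cannot be told apart, so the marker levels of the cells that make or carry chemokines are given beside the members. Over all genes, for the counts that follow, 6.71% rose and 9.08% fell, or 8.79% and 11.0% with the replicate block. Changes above 0 made up 52.9% of all genes. Of 17 macrophage and monocyte markers 15 had changes above 0 (median 0.47), and 1 rose, the lysozyme Lyz2, or 3 rose and 1 fell with the replicate block. Their mean deviation was 0.44, 0.36 and 0.02 on metformin arrays 1 to 3, against -0.39, 0.36 and -0.78 on saline arrays 1 to 3. Saline array 2 was high and saline array 3 low here as in the chemokine genes. Tubule injury genes, 11 tested with 0 passed in limma, 4 with the replicate block and all 11 changes above 0, gave 1.02, 0.56 and -0.25 on metformin arrays 1 to 3, against -0.44, 0.26 and -1.14 on saline arrays 1 to 3. Of 11 fibroblast and pericyte markers Col1a1 rose and Rgs5 fell, or 4 rose and 2 fell with the replicate block, with list means of 0.24, 0.23 and 0.01 on metformin arrays 1 to 3, against -0.12, 0.43 and -0.78 on saline arrays 1 to 3. The calls of Lyz2 and Col1a1 held in only 1 of the 6 fits with 1 array left out, and that of Rgs5 in 3. Median-centring also ended the Col1a1 call (limma adjusted p = 0.0517). The part of these cells in the chemokine values was not tested.

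**Figure D4:**
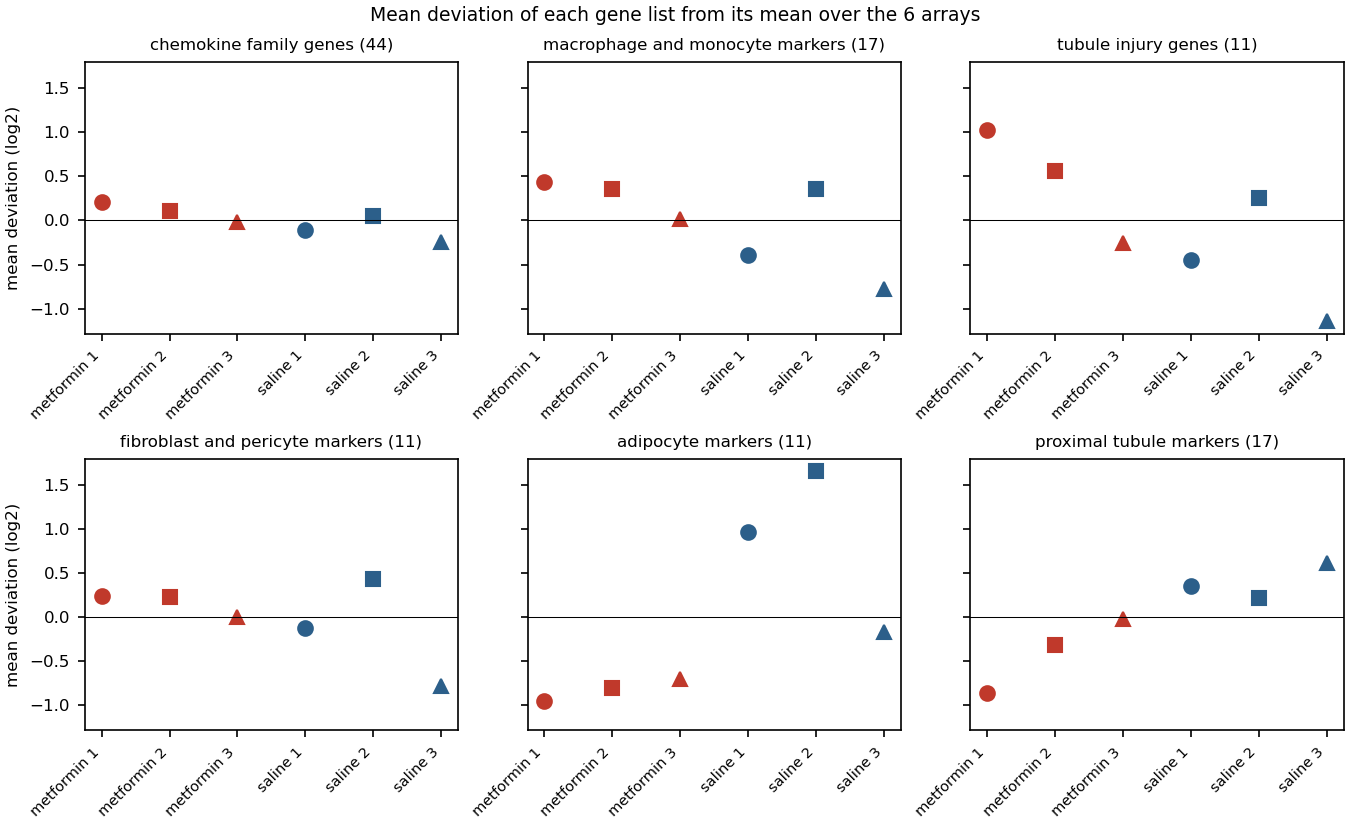
Mean deviation in log2 units of the 44 chemokine family genes and of 5 other gene lists (number of genes tested in brackets) on each array, metformin left of saline, with circle, square and triangle for replicates 1, 2 and 3. Saline replicate 2 lies above 0 and saline replicate 3 is the lowest in the chemokine, macrophage, injury and fibroblast panels, whereas adipocyte markers are highest on saline replicates 1 and 2.

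Of 12 neutrophil markers 8 lay under the percentile, among them S100a8, Mpo and Elane, and the 4 others had a median of 0.09. The 11 T cell markers had a median of 0.10 with 0 passed in limma. Of the 11, 6 did not overlap, all higher, against 17.8% of all genes higher without overlap. The medians were 0.05 for the 7 NK cell markers, 0.01 for the 6 B and plasma cell markers and 0.14 for the 10 dendritic cell markers, of which Itgax alone rose. The Itgax call ended after median-centring (0.0697), after quantile normalization (0.0727) and in 5 of the 6 fits with 1 array left out.

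Stromal, endothelial and fat cells can make Cxcl12, and their markers are given beside it. The fibroblast and pericyte list had a median of 0.35 and 7 of its 11 changes above 0. Of 10 blood endothelial markers 8 had changes below 0 (median -0.29) and 1 fell, the angiopoietin receptor Tek at -0.45 ± 0.11 (SE; limma adjusted p = 0.0367). The Tek call ended in all 6 fits with 1 array left out (0.0592 to 0.121). Their mean deviation was -0.27, -0.06 and -0.09 on metformin arrays 1 to 3, against 0.27, 0.28 and -0.13 on saline arrays 1 to 3. Adipocyte markers, 11 tested with 2 that fell (Car3 and Adipoq), 5 with the replicate block, and all 11 changes below 0, gave -0.95, -0.80 and -0.70 on metformin arrays 1 to 3, against 0.97, 1.65 and -0.16 on saline arrays 1 to 3. The Adipoq call held in only 1 of the 6 fits with 1 array left out, and that of Car3 in 3. On metformin array 1 Cxcl12, the endothelial, adipocyte and proximal tubule lists were each at their lowest, whereas the fibroblast and pericyte list was at 0.24. Their part in the Cxcl12 value was not tested.

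Genes that act behind the receptors were read beside them. Of 26 genes of chemokine receptor signalling 2 rose and 1 fell (median 0.20), against 6.71% and 9.08% of all genes. With the replicate block 2 rose and 2 fell, against 8.79% and 11.0% of all genes. Grk3, a kinase that desensitizes receptors, read 7.62, 7.55 and 7.55 on metformin arrays 1 to 3, against 7.02, 7.22 and 7.0 on saline arrays 1 to 3 (change 0.49 ± 0.10, SE; limma adjusted p = 0.0204). Dock2, the leukocyte exchange factor for Rac that migration needs, read 7.29, 7.18 and 7.20 on metformin arrays 1 to 3, against 6.32, 6.97 and 6.25 on saline arrays 1 to 3 (change 0.71 ± 0.19, SE; limma adjusted p = 0.0442). Neither overlapped between the groups. Ptk2b, the calcium-activated kinase Pyk2, fell by 0.45 ± 0.11 log2 units (SE; limma adjusted p = 0.0356). Each of these 3 calls ended in 5 of the 6 fits with 1 array left out. That of Dock2 also ended after median-centring (0.0756) and quantile normalization (0.0777), and that of Grk3 after quantile normalization (change 0.27, 0.0530).

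Of 22 NF-kB subunits, inhibitors and inducers 1 rose, Nfkbiz, the inducible nuclear IkB protein, at 9.52, 8.74 and 8.09 on metformin arrays 1 to 3, against 7.05, 7.92 and 6.71 on saline arrays 1 to 3. Metformin array 1 was the highest and saline array 3 the lowest, without overlap, and its change was 1.56 ± 0.41 (SE; limma adjusted p = 0.0428). The median of the list was 0.24, and Il6 lay under the percentile. The 1 of 22 that rose stands against 6.71% of all genes, and the 3 that rose with the replicate block against 8.79%. Among 9 chemokine-related genes that the name rule does not take in, 2 fell, against 9.08% of all genes. They were Ccrl2, an atypical receptor that binds chemerin (-0.61 ± 0.17, SE; limma adjusted p = 0.0475), and Cmtm6, a membrane protein of the chemokine-like factor group (-0.72 ± 0.18, SE; limma adjusted p = 0.04). Ccrl2 read 5.72, 5.30 and 5.30 on metformin arrays 1 to 3, against 6.19, 6.19 and 5.76 on saline arrays 1 to 3, so it lay below saline while most chemokine ligands lay above. The platelet chemokines Pf4 and Ppbp had changes of 0.38 and -0.15. Pf4 passed only with the replicate block (limma adjusted p = 0.146, and 0.0429 with the block). With that block 1 of the 9 rose and 2 fell, against 8.79% and 11.0% of all genes. The calls of Nfkbiz and Ccrl2 ended in 4 of the 6 fits with 1 array left out, and that of Cmtm6 in all 6. The Nfkbiz call also ended after median-centring (0.0503).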

How the data were processed

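Kidney RNA of 6 samples was hybridised to 1 array each, 3 metformin and 3 saline. The deposited table holds log2 values per transcript cluster, which the authors made with RMA in Transcriptome Analysis Console 4.0 (both named in the submitters' processing notes). The RMA variant, settings and genome build are not stated. Values reach 19.9, above what a 16-bit scan records, so folds hold on the deposited scale. Levels of different clusters were not compared.

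Symbols came from the platform annotation: 30604 clusters have 1 symbol, 2146 several, and 33206 are unnamed here. They were updated by Entrez number through RefSeq GRCm38.p6 (22818 matched).

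Clusters with a mean at or under the 33.3rd percentile were left out and the highest-mean cluster was kept per gene. The 22098 genes left went into a two-sided limma fit (3.58.1, R 4.3.3; lmFit and eBayes) with Benjamini-Hochberg adjustment over all of them. Changes are metformin minus saline. The script was tested on simulated data. The labels call the samples biological replicates, and 3 arrays per group limit the precision.

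Values on all arrays are given for members past the threshold, the 12 with the smallest p, the 8 with the highest means and preset ligand-receptor pairs; of other lists, for some of the genes past the threshold. Ackr3 belongs to the preset pairs although the name rule leaves it out. Ccl28 was added outside these rules, and Pkd1 for what it is. The genes named among the remaining lists were added after their values were seen. Members and lists were chosen with earlier results of these data known.

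Deviations from group means correlated at 0.118, 0.145 and 0.541 for replicate numbers 1, 2 and 3, each over 0.1, which by the rule used counts as a pairing. The block and the other alternatives are given in the closing section.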

Additional observations from a re-analysis of the deposited data

How the results depend on the processing

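The calls are thin. The 3 calls among the 44 tested members became 10 with the replicate block (22.7%, against 19.8% of all genes), 5 with array weights (11.4% against 19.3%) and 5 of those past a 50th percentile filter (13.9% against 21.4%), but 1 after median-centring (2.27% against 16.4%) and 1 without a filter (1.79% against 10.5%). They ran from 0 to 8 when 1 array was left out, against 3.81% to 17.9% of all genes. The 8 came without saline array 2, where Ccl9 and Cxcl9 were among them, and the 0 without metformin array 1, metformin array 2 or saline array 1. Members past 1.5-fold numbered 5 of 44 after quantile normalization (4 higher, 1 lower), against 3069 of 22098 genes (733 higher, 2336 lower). At 2-fold they numbered 0, against 564 genes. With 1 array left out they numbered 3 to 12, against 2156 to 3364 genes. After quantile normalization 10 members did not overlap (22.7%, against 42.5% of all genes), 6 higher and 4 lower. Members without overlap numbered 14 to 21 (31.8% to 47.7%) with 1 array left out, against 42.9% to 50.6% of all genes, for each of which fewer arrays make overlap rarer. Over all features 7773 were called when every cluster was tested, and 843 to 3952 genes with 1 array left out. Past 1.5-fold with p under 0.05 were 7169 of all clusters. The causes were not tested, except that a left-out array leaves fewer samples and a wider filter changes how many features share the adjustment.

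The member median kept its direction under every alternative run, at 0.03 to 0.19. Median-centring moved the median of all genes to -0.07 and quantile normalization to -0.10, which called 993 genes higher and 3806 lower. Of the 44 changes 7 turned to below 0 with the centring and 10 with quantile normalization. Among the members followed one by one these were Ccr7 to -0.0203 and -0.12, Cxcl13 to -0.0871 and -0.21, and Cxcr3 to -0.00398 and -0.0235 under the 2 settings, and under quantile normalization Ccl19 to -0.00170, Ccl25 to -0.0289 and Cxcr4 to -0.0144. With 1 array left out the change ranged from -0.00245 to 0.32 for Ccl19, -0.0102 to 0.16 for Ccr7, -0.12 to 0.17 for Cxcl13, -0.31 to 0.0697 for Cxcl14 and -0.12 to 0.37 for Cxcr4. Of the values of the 25 tested members followed under the alternatives, 313 kept direction and call, 22 lost the call, 21 gained it and 17 turned; the other 19 tested members are not counted there. The replicate block changed the call of no tested member beyond those named with it. No background level was measured, so signal over background is not known for members under the percentile.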

Other observations

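Chemokine genes sit in clusters. For the counts that follow, changes above 0 made up 75% of the 44 tested members and 52.9% of all genes. On chromosome 11 lie 14 of the 56, most of them inflammatory CC ligands, and 11 of the 13 tested had changes above 0 (median 0.42, range -0.23 to 0.92). On chromosome 5 lie 11, the Cxcr2 and Cxcr3 ligands among them, and 8 of the 9 tested had changes above 0 (median 0.16). On chromosome 9 lie 12, all receptors, of which 6 passed the filter (median 0.12).

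Ccl21, the lymphatic ligand of Ccr7, has copies that the platform lists together, so the name rule leaves it out. Its 9 clusters carry 5 distinct sets of values, from 9.05 to 9.59 log2 units with metformin and from 9.34 to 10.37 with saline. The changes ran from -0.60 to -0.52. With limma over all clusters, where 17.7% passed, 0 of the 9 did (adjusted p between 0.0661 and 0.105). Of 5 lymphatic endothelial markers 0 passed in limma, against 15.8% of all genes, and the median of the 5 was -0.18. Pdpn rose with the replicate block (change 1.21, limma adjusted p = 0.0371), and the other 4 had changes below 0. Of the 5, 3 were lower without overlap, against 19.4% of all genes.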
